A study of Danio rerio with 6 samples.

Results

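The 10 genes described here encode the transcription factor SREBP2 (srebf2), the low-density lipoprotein (LDL) receptors (ldlra and ldlrb) and 7 enzymes of sterol synthesis (hmgcs1, hmgcra, pmvk, sqlea, lss, cyp51 and dhcr7). They were taken by symbol from tables of 36191 gene IDs, and all 10 were found. They were chosen on the difference between control and graphene oxide and on how evenly it recurred over the 3 replicate numbers, so every value of that difference for them is a description and carries no test. The data are RNA sequencing libraries, 6 in all, whose labels name liver from wild-type AB zebrafish aged 3 months. There were 3 libraries from control fish and 3 from fish exposed to graphene oxide nanoparticles, a sheet-like carbon material. The labels state no further difference between the groups, and they do not say whether a library came from 1 fish or from several.

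Cells hold their sterol level by making cholesterol and by taking it up. When sterol in the endoplasmic reticulum is low, the escort protein SCAP carries SREBP2 to the Golgi, where proteases release the part that enters the nucleus and switches on genes of sterol synthesis and the LDL receptor. INSIG proteins hold SCAP back when sterol is plentiful. In liver the same machinery serves bile acid production and the clearance of lipoproteins from blood. These roles are known from mammals and are given here as background to the zebrafish genes of the same names.

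The libraries did not look like pure liver, and replicate 3 of both groups stood apart. The expected counts of a library added up to between 9739760 and 12998273. A list of 16 hepatocyte genes summed to 1248, 1238 and 12700 CPM (counts scaled to a library total of 1000000) in control replicates 1, 2 and 3 and to 573.9, 556 and 14070 CPM with graphene oxide. It was thus lower with graphene oxide in replicates 1 and 2 and higher in replicate 3. None of the 16 was at 0 in every library, although the haptoglobin gene hp had no count in 4 of them. Intestine genes summed to 140, 138 and 1841 CPM in control and to 44.6, 40.6 and 1971 CPM with graphene oxide, with the same order of the groups. Exocrine pancreas genes were at 5.86 to 10.99 CPM in replicates 1 and 2 and at 2763 and 2871 CPM in replicate 3. Photoreceptor genes summed to 3938 to 4913 CPM in control and 3180 to 3852 CPM with graphene oxide, and epidermis genes to 18940 to 19680 and 12930 to 18130 CPM, both without overlap. A list of 12 skeletal muscle genes summed to 58830 to 87520 CPM in control and 60240 to 78660 CPM with graphene oxide, and neural genes to 1971 to 3564 and 1923 to 3423 CPM. In such mixed samples, fewer cells of a type and less RNA per cell cannot be told apart. The part of these differences between groups and between replicate numbers in the values that follow was not tested, and values are therefore given for each library. Single-gene CPM values are scaled by TMM, a correction for library composition.

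The LDL receptor gene ldlrb (gene ID 393460) had the largest fitted log2 fold change of the members after sqlea. The receptor it encodes takes up cholesterol-rich lipoprotein. In the order of replicates 1, 2 and 3, which is kept throughout, it was at 32.4, 33.3 and 31.5 CPM in control and at 65.9, 67.1 and 53.0 CPM with graphene oxide. Every graphene oxide library was above every control library, and replicate 3 with graphene oxide was the lowest of its group. The means were 62.0 ± 7.79 CPM against 32.4 ± 0.883 CPM (SD, n = 3 each). The fitted log2 fold change was 0.94 ± 0.13 (SE). Standard errors of members, here and below, describe the fit and carry no test.

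Its paralog ldlra (387529), the second LDL receptor gene, showed no such step and followed the replicate number. It was at 14.5, 11.8 and 91.7 CPM in control and at 16.6, 14.5 and 90.6 CPM with graphene oxide. Graphene oxide stood at 1.15, 1.23 and 0.989 times control in replicates 1, 2 and 3, and the groups overlapped. The replicate 3 libraries were 6.36-fold above the others, beside the higher hepatocyte, intestine and exocrine pancreas totals given above. Which of these tissues the ldlra level followed was not tested. On the length-normalized FPKM scale, ldlrb made up 75.2%, 79.2% and 31.8% of the summed FPKM of both receptor genes in control and 84.3%, 86.2% and 44.2% with graphene oxide. The share of ldlrb was thus higher with graphene oxide at each replicate number, and lower in replicate 3 than in replicates 1 and 2 in both groups. The summed receptor level was 12.1, 11.9 and 29.4 FPKM in control and 22.8, 22.8 and 35.4 FPKM with graphene oxide.

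**Figure D1:**
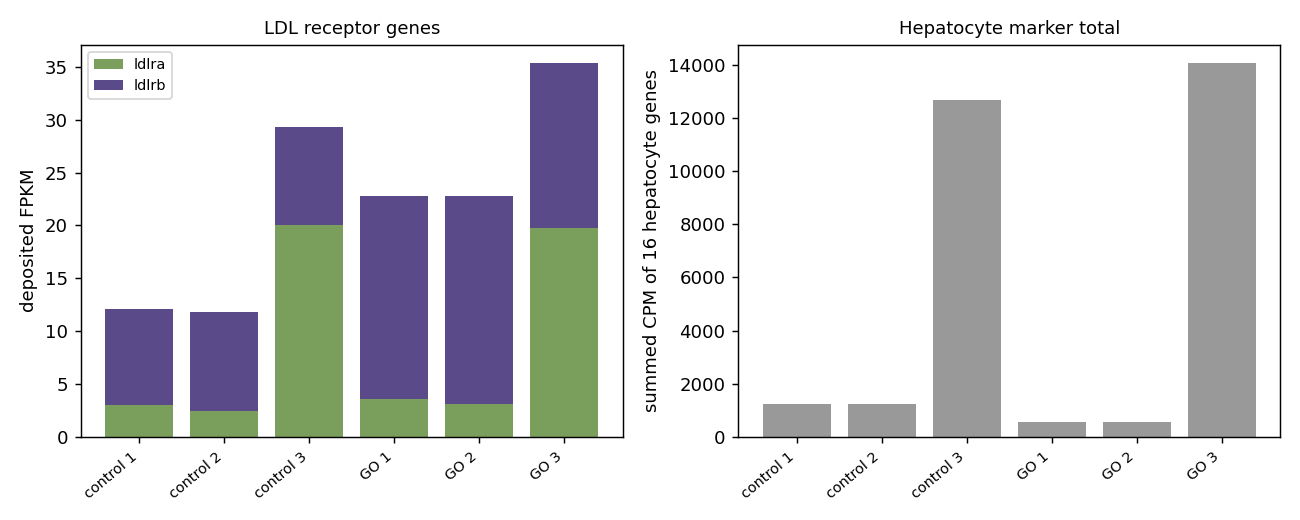
Left, stacked bars of deposited FPKM for ldlra and ldlrb in each of the 6 libraries. Right, summed CPM of 16 hepatocyte genes in the same libraries. Replicate 3 of both groups carried the high ldlra bars (20.0 and 19.7 FPKM) and the high hepatocyte totals (12700 and 14070 CPM), while the ldlrb part was larger in every graphene oxide library than in control. Intestine and exocrine pancreas totals, not drawn, were also higher in replicate 3 of both groups.

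The regulator gene srebf2 (100037309) had the highest mean CPM of the members in both groups, although ldlra was above it in replicate 3 of both. The level of srebf2 was 111, 117 and 80.0 CPM in control and 134, 148 and 88.2 CPM with graphene oxide. At each replicate number graphene oxide was above control, at 1.21, 1.27 and 1.102 times its level, but replicate 3 with graphene oxide lay below control replicates 1 and 2, so the groups overlapped. The log2 fold change was 0.27 ± 0.25 (SE). It was 0.12 without control replicate 3, 0.12 without graphene oxide replicate 2 and 0.46 without graphene oxide replicate 3.

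The enzymes of the mevalonate steps, which build isoprenoid units from acetyl-CoA, differed among themselves. The HMG-CoA synthase gene hmgcs1 (394060) was at 34.0, 37.1 and 44.6 CPM in control and at 39.3, 36.9 and 58.3 CPM with graphene oxide. Its graphene oxide libraries stood at 1.16, 0.996 and 1.31 times control, nearly level at replicate 2. The HMG-CoA reductase gene hmgcra (559054), which encodes the rate-limiting enzyme, was at 20.2, 20.2 and 15.2 CPM in control and at 16.8, 16.9 and 24.8 CPM with graphene oxide. It was thus lower with graphene oxide in replicates 1 and 2 (0.835 and 0.838 times control) and higher in replicate 3 (1.64 times). The tables carry hmgcra on 2 rows, and they do not say what separates them. In unscaled CPM the second row was at 10.1, 9.28 and 10.9 in control and at 9.36, 7.58 and 21.5 with graphene oxide, while the other row was at 9.47, 10.3 and 4.51 and at 7.65, 9.46 and 3.79. The higher hmgcra value of graphene oxide replicate 3 lay in the second row, which held 85.0% of the counts of the gene there and 44.5% to 70.8% in the other libraries. Reads were divided between these rows by estimation, so their split is less certain than their sum.

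The phosphomevalonate kinase gene pmvk (100003383) was near the lower end of what was tested. It was at 2.43, 1.82 and 2.20 CPM in control and at 3.59, 3.06 and 2.74 CPM with graphene oxide, from 23 to 39 counts per library. All graphene oxide values were above all control values, at 1.48, 1.69 and 1.24 times by replicate number. This gene also stands on 2 rows, and only the second kept the groups apart, in unscaled CPM alone. There graphene oxide replicate 3 (1.82) was just above control replicate 1 (1.75). With the TMM factors of these libraries (1.017 and 0.9726) the second row overlapped too. In unscaled CPM the second row was at 1.75, 1.35 and 1.37 in control and at 3.02, 2.46 and 1.82 with graphene oxide. The first row overlapped, at 0.616, 0.421 and 0.873 in control and at 0.602, 0.631 and 0.964 with graphene oxide.

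The sterol-forming enzymes act after squalene. The squalene epoxidase gene sqlea (799528), which encodes a second rate-limiting enzyme, was at 2.43, 1.74 and 2.12 CPM in control and at 4.51, 6.99 and 2.46 CPM with graphene oxide. The groups did not overlap, but graphene oxide replicate 3 (exact 95% Poisson interval 1.62 to 3.59 CPM) lay barely above control replicate 1 (1.54 to 3.64 CPM). The interval of control replicate 3 was 1.37 to 3.13 CPM. In replicate 2 the ratio of graphene oxide to control was 4.02. The lanosterol synthase gene lss (795400) was at 2.11, 3.48 and 3.30 CPM in control and at 3.22, 2.20 and 5.39 CPM with graphene oxide. Its ratio was 1.53 and 1.63 in replicates 1 and 3 and 0.632 in replicate 2, from 20 to 59 counts per library, so its direction was not shared by the 3 numbers.

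The lanosterol demethylase gene cyp51 (414331), whose product removes a methyl group from lanosterol, the first sterol of the pathway, was the other member with a clear step in all libraries. It was at 10.2, 13.0 and 11.2 CPM in control and at 18.2, 18.9 and 22.4 CPM with graphene oxide. The lowest graphene oxide value stood above the highest control value, and the ratio by replicate number was 1.78, 1.45 and 2.0. The means were 19.8 ± 2.22 against 11.5 ± 1.43 CPM (SD, n = 3 each), with a log2 fold change of 0.79 ± 0.17 (SE). The gene dhcr7 (378446), for the reductase that makes cholesterol in the last step of one branch, was at 8.44, 9.09 and 19.8 CPM in control and at 13.1, 8.96 and 23.2 CPM with graphene oxide. Its replicate 3 values were the highest in both groups, and the groups overlapped.

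**Figure D2:**
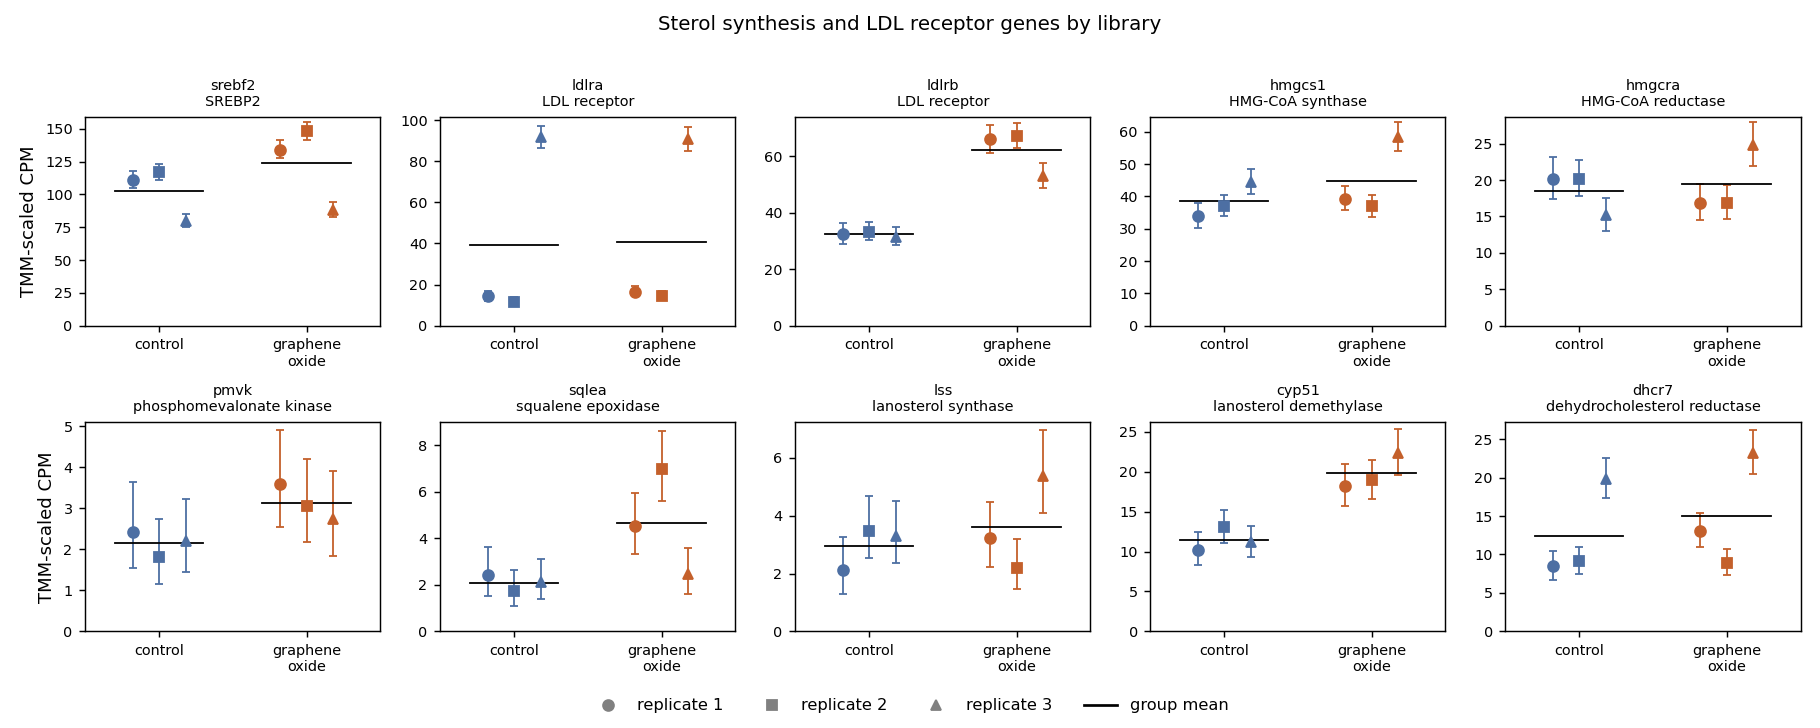
TMM-scaled CPM of each of the 10 genes in the 3 control and 3 graphene oxide libraries. Marker shapes give the replicate number, error bars the exact 95% Poisson interval of the count, and black lines the group mean. The groups are apart for ldlrb, pmvk, sqlea and cyp51 and overlap for the other 6, and replicate 3 stands far above replicates 1 and 2 for ldlra.

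Over the 10 members the log2 fold change ran from 0.04 for ldlra to 1.15 for sqlea, with a median of 0.27 against -0.0006 over the 19313 genes tested. All 10 fitted values were positive, where 49.8% of all genes tested had a positive value. The median was 0.66 without control replicate 3 and 0.54 without graphene oxide replicate 2, and it was 0.22 without graphene oxide replicate 3, where 5 of the 10 were positive. It was 0.31 in replicates 1 and 2 alone, where 8 of the 10 were positive. The groups did not overlap for 4 members (ldlrb, pmvk, sqlea and cyp51), beside 3.67% of all genes with graphene oxide on the higher side. Graphene oxide was above control at all 3 replicate numbers for 5 members, those 4 and srebf2, beside 18.1% of all genes. In a fit of replicates 1 and 2 alone, ldlrb, srebf2, sqlea and cyp51 were called as higher, beside 12.9% of all genes. Replicates 1 and 2 of a group differed by little more than counting error, and that fit called 24.9% of all genes in either direction. Because the members were chosen on this contrast, nothing is read from these counts or calls. All 10 members passed the filter, which asked for an FPKM averaging at least 1 across libraries.

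**Figure D3:**
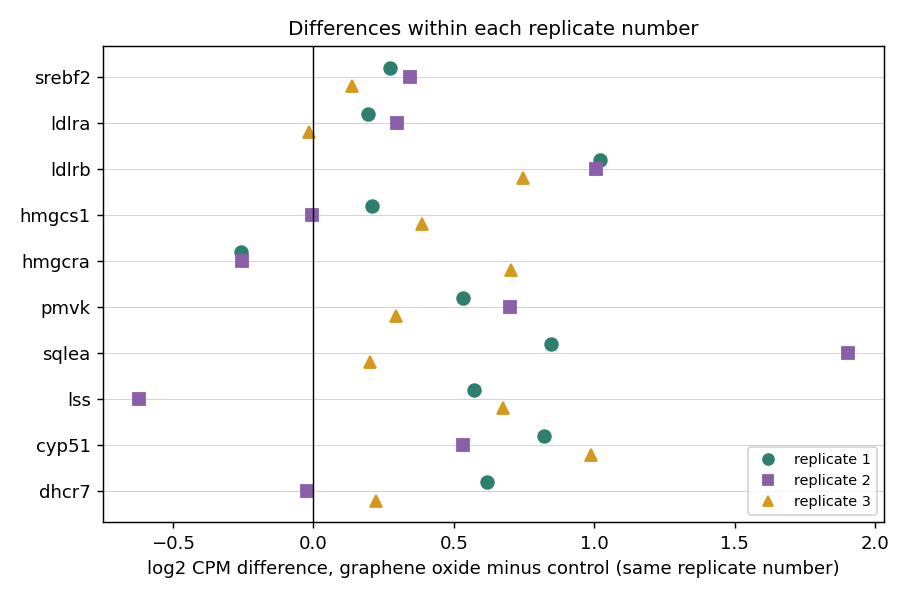
Difference of log2 CPM, graphene oxide minus control, between libraries of the same replicate number for each of the 10 genes. Of the 30 points, 24 lie above 0. The points of ldlrb lie at 1.02, 1.01 and 0.75 and those of cyp51 at 0.82, 0.53 and 0.99, while hmgcra has its replicate 1 and 2 points below 0 and its replicate 3 point at 0.70.

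The replicate number with the largest difference was not the same for all members. It was replicate 1 for ldlrb and dhcr7, replicate 2 for ldlra, srebf2, pmvk and sqlea, and replicate 3 for hmgcs1, hmgcra, lss and cyp51. The median difference over the members was 0.55, 0.32 and 0.34 on the log2 scale at replicates 1, 2 and 3.

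On the deposited FPKM scale, which allows levels to be compared between genes, the members spanned more than an order of magnitude in control. The srebf2 gene was highest at 24.9 ± 4.22 FPKM, followed by hmgcs1 at 13.1 ± 2.22 and ldlrb at 9.28 ± 0.140 FPKM (SD, n = 3 each). The ranges of these 3 genes did not overlap. The ldlra gene came next at 8.5 ± 9.99 FPKM and dhcr7 at 7.57 ± 4.13 FPKM, and neither could be set apart from its neighbours because replicate 3 was far higher. Then hmgcra at 5.31 ± 0.537 and cyp51 at 5.31 ± 0.651 FPKM overlapped with each other. The lowest were lss at 1.34 ± 0.352, pmvk at 1.31 ± 0.191 and sqlea at 1.15 ± 0.186 FPKM, which overlapped among themselves and lay below the other 7 in every control library. With graphene oxide ldlrb was at 18.2 ± 2.21 FPKM, above hmgcs1 at 15.5 ± 4.14 FPKM, with overlapping ranges.

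Unlike the share of ldlrb, the share of the reductase paralog did not move the same way at every replicate number. The hmgcrb gene, a second HMG-CoA reductase gene, made up 66.1%, 64.5% and 72.9% of the summed FPKM of hmgcra and hmgcrb in control and 71.6%, 70.6% and 63.0% with graphene oxide. The sum was 16.4, 16.1 and 17.3 FPKM in control and 18.3, 18.2 and 19.7 FPKM with graphene oxide. It was thus higher with graphene oxide at each replicate number, as was the sum of the receptor pair. The epoxidase paralog sqleb was listed at 0 to 0.42 FPKM and was below the filter, so no pattern is read from it.

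The members also differed, to unlike degrees, in level between the replicate numbers. The mean CPM of the replicate 3 libraries was 6.36 times that of the other libraries for ldlra. It was 2.17 times for dhcr7, 1.58 times for lss and 1.397 times for hmgcs1. For srebf2 it was 0.659 times, for ldlrb 0.851 times and for cyp51 1.11 times. The ratio was 0.585 for sqlea, 0.907 for pmvk and 1.08 for hmgcra. A fit with group and replicate number has a residual that holds the evenness on which the members were chosen. These ratios are therefore a description and carry no test.

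The rest of the sterol pathway was read from 5 lists of 69 genes, of which 63 were in the tables and 60 passed the filter. With all 6 libraries in the fit of graphene oxide against control, edgeR called 0 of these 60 and 0 of all 19313 genes (0%), and 0 of the 60 had an unadjusted p under 0.05, where 438 of all genes (2.27%) did. DESeq2 also called 0 of the 60, and 10 of all genes (0.0518%), of which ldlrb was the only member. As ldlrb was chosen on this contrast, nothing is read from its call. With the replicate number as a block, edgeR called 0 genes. An unadjusted p under 0.05 was found there for 14 of the 60 and for 2793 of all 19313 genes (14.5%), a larger share of the 60. These counts take both directions together. A positive log2 fold change was found for 45 of the 60 (median 0.15), against 49.8% of all genes. Graphene oxide was above control at all 3 replicate numbers for 21 of the 60 (35.0%, against 18.1% of all genes) and below it for 7 (11.7%, against 19.7%). The groups did not overlap for 4 of the 60 with graphene oxide on the higher side (6.67%, against 3.67% of all genes). On the lower side this held for 0 of the 60 and for 791 of all 19313 genes. In the fit with group and replicate number, edgeR called 24 of the 60 as different between replicate numbers (40%, against 40.7% of all genes), a share near the background. By list these were 1 of 15 other synthesis enzymes, 4 of 11 control genes, 5 of 12 uptake and transport genes, 9 of 13 efflux, ester and bile acid genes and 5 of 9 fatty acid synthesis genes. These lists were written with earlier results of these data known.

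**Figure D4:**
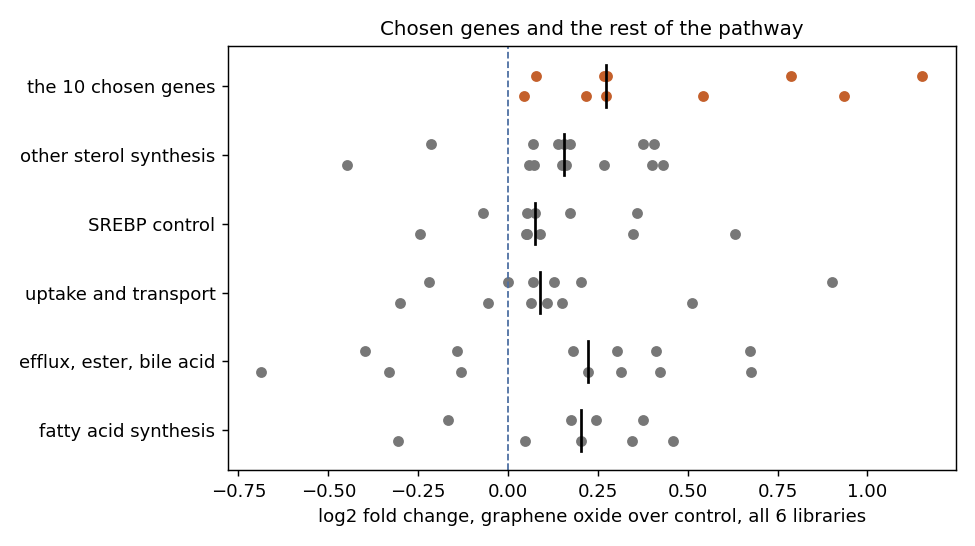
Fitted log2 fold change, graphene oxide over control in all 6 libraries, for each tested gene of the 10 chosen genes and of 5 lists of related genes. Each point is a gene, black bars are list medians and the dashed line is the median of all 19313 genes. The medians were 0.27 for the chosen genes and 0.16, 0.08, 0.09, 0.22 and 0.20 for the lists from top to bottom.

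Among 15 other tested enzymes of sterol synthesis, 13 had a positive value and none passed the test in either direction (median 0.16). The genes with the smallest p were hsd17b7, msmo1 and ebp, which act between lanosterol and cholesterol. The ketoreductase gene hsd17b7 was at 7.28, 7.75 and 4.83 CPM in control and at 8.65, 9.74 and 8.40 CPM with graphene oxide, without overlap. The methyl sterol oxidase gene msmo1 was at 6.65, 7.43 and 8.47 CPM in control and at 9.02, 7.23 and 13.7 CPM with graphene oxide. The sterol isomerase gene ebp was at 4.12, 5.14 and 5.76 CPM in control and at 4.97, 5.97 and 8.58 CPM with graphene oxide. Both overlapped and were highest in graphene oxide replicate 3.

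Among 11 genes that control SREBP, the LDL receptor or the reductase, 9 had a positive value and none passed (median 0.08). The gene srebf1, which encodes the related factor of fatty acid synthesis, was at 26.1, 27.1 and 44.0 CPM in control and at 41.4, 42.8 and 66.6 CPM with graphene oxide. It was higher with graphene oxide at each replicate number, while replicate 3 was the highest of both groups. The retention gene insig1, itself a target of SREBP2 in mammals, was at 12.8, 13.2 and 27.3 CPM against 15.0, 15.3 and 37.5 CPM. The escort gene scap was nearly level, at 54.6, 54.1 and 57.5 CPM against 57.2, 55.7 and 62.3 CPM. The gene mylipa, for a ubiquitin ligase of the LDL receptor, was at 30.8, 29.2 and 34.1 CPM against 28.1, 26.95 and 42.7 CPM, and insig2 at 5.28, 6.88 and 6.18 CPM against 5.52, 8.41 and 6.75 CPM.

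Among 12 genes of lipoprotein uptake and sterol transport, 8 had a positive value and none passed (median 0.09). The LDL receptor adaptor gene ldlrap1a was lower with graphene oxide at each replicate number, at 12.4, 10.5 and 16.2 CPM against 15.0, 15.3 and 18.04 CPM in control. The high-density lipoprotein receptor gene scarb1 was at 6.76, 7.19 and 14.1 CPM in control and at 7.36, 5.97 and 39.2 CPM with graphene oxide, so its difference lay in replicate 3. The lipoprotein receptor gene lrp8 was at 28.7, 31.2 and 24.3 CPM against 33.7, 33.5 and 26.4 CPM.

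Of 13 genes of sterol efflux, esterification and bile acid synthesis, 8 had a positive value and none passed (median 0.22). The transporter gene abcg1 was at 14.7, 12.6 and 12.2 CPM against 15.6, 18.3 and 15.1 CPM, without overlap. The acyltransferase gene soat1 was at 4.22, 3.004 and 8.72 CPM in control and at 5.24, 5.18 and 15.1 CPM with graphene oxide, with its highest values in replicate 3. The sterol hydroxylase gene cyp27a1.4 was lower with graphene oxide at each replicate number, at 0.971, 1.09 and 2.57 CPM against 2.05, 2.47 and 3.05 CPM in control. Of 9 genes of fatty acid synthesis 7 had a positive value and none passed (median 0.20). The fatty acid synthase gene fasn was at 107, 108 and 67.0 CPM in control and at 127, 119 and 112 CPM with graphene oxide. The acyltransferase gene gpam was at 50.5, 47.3 and 47.5 CPM in control and at 52.1, 53.5 and 58.4 CPM with graphene oxide. The groups of both genes did not overlap. The desaturase gene fads2 was at 12.4, 11.8 and 9.15 CPM against 11.2, 14.7 and 17.3 CPM.

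In replicates 1 and 2 alone, edgeR called 10 of the 60 as higher (16.7%, against 12.9% of all genes) and 8 as lower (13.3%, against 12.0%). These shares were near the background, and replicates 1 and 2 of a group differed by little more than counting error. Among the called genes, srebf1 rose by 0.66 (adjusted p = 8.19e-11 in edgeR) and hmgcrb by 0.24 (0.0277) on the log2 scale, while the synthesis genes nsdhl and mvda had log2 fold changes of -0.84 (0.00724) and -0.68 (0.0099). In replicate 3 the log2 differences of these 4 genes were 0.60, -0.02, 0.10 and 0.52. With all 6 libraries in edgeR, srebf1 had an unadjusted p of 0.073, and an adjusted p of 0.16 with the replicate block. The genes hmgcrb, nsdhl and mvda were named after their values were seen.

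The genes whose pattern over the 6 libraries lay nearest to the median profile of the members were hsp90aa1.1, dnajc21, mms22l, ddx52 and lrig3. Likeness was the root mean square distance of mean-centred log2 CPM, and it was 0.0892 to 0.0997 for these 5 against a median of 0.396 over 13237 candidate genes. The chaperone gene hsp90aa1.1 was at 54.0, 55.7 and 52.0 CPM in control and at 68.3, 70.7 and 91.1 CPM with graphene oxide. Among the members, cyp51 lay nearest to this profile (0.172) and ldlra farthest (1.18). For ldlrb the nearest genes were panx2, spata5, zbtb7b, abcg4a and lctla, at 0.147 to 0.196 against a median of 0.537. For both profiles the 5 genes were picked by smallest distance, so their place below the median was fixed by the selection. Both profiles came from genes chosen on the contrast of the groups, so the likeness is a description and carries no test. The channel gene panx2 was at 3.80, 4.35 and 3.05 CPM in control and at 7.36, 6.60 and 5.75 CPM with graphene oxide.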

How the data were processed

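Libraries labelled as zebrafish liver (3 control, 3 graphene oxide) were grouped and numbered by their titles. The deposited expected counts, TPM and FPKM stand in 1 table per library, per the file headers. TPM was not used. Per the submitters' processing notes, Bowtie2 2.3.2 and GRCz11 were used; the sources used here do not give the counting program or its strand setting. Rows of a gene ID were summed (hmgcra and pmvk had 2 rows each) and rounded. Genes with a mean FPKM of at least 1 entered edgeR 4.0.16 (quasi-likelihood test, TMM scaling, group as the only term, two-sided, Benjamini-Hochberg adjusted p under 0.05). A second fit added the replicate number. Differences by replicate number used log2 CPM with a prior count of 2. Fits were tested on simulated data. All tests across genes ran on 19313 genes.

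Members and lists were chosen with earlier results of these data known. All 10 members were named; of each list the 3 genes with the smallest p, and insig1, scap, mylipa and srebf1, were named, and some genes of the lists are not reported here; for profiles, the 5 nearest genes with a mean of at least 5 CPM. Same-numbered libraries were treated as pairs. Deviations from group means correlated at 0.733, 0.745 and 0.867 for replicates 1, 2 and 3. Replicates 1 and 2 also correlated across numbers (0.741 and 0.725), so these values set replicate 3 apart but cannot tell replicate 1 from 2. For replicates 1 and 2 the pairing rests on the numbers in the titles alone. Chi-square per degree of freedom between replicates 1 and 2 was 1.62 in control and 1.56 with graphene oxide, above counting noise, so they were kept as separate. The labels name no separate animals, so p-values reflect variation among these libraries that may be technical. A count of 0 allows up to 3 counts, 0.231 to 0.308 CPM. Intervals and floors cover counting error only. Alternatives covered scaling, filters, DESeq2 1.42.0, limma 3.58.1 on log2(FPKM + 1) and log2(FPKM + 0.1), the row with the highest count, the replicate block and left-out libraries. No sequences are shown.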

Additional observations from a re-analysis of the deposited data

How the results depend on the processing

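With the replicate number as a block, edgeR called 0 genes and 0 of the 60 pathway genes, and the median log2 fold change of the members was 0.26. The block changed no call, but it changed the fit. The common dispersion, the fitted spread between libraries, was 0.166 without the block and 0.014 with it. The smallest adjusted p in edgeR was 0.99988 without it and 0.16 with it. Genes with an unadjusted p under 0.05 numbered 438 and 2793. The lack of calls without the block is thus no evidence that genes were level. DESeq2 called 10 genes, among them ldlrb, which was chosen on this contrast. Replicates 1 and 2 alone gave 4810 genes and 18 pathway genes. The median of the members ran from 0.22 to 0.66 when 1 library was left out and kept its sign in all alternatives. The fits without a replicate 3 library hold it in 1 group only. Over 16 alternatives, ldlrb (0.88 to 1.04), srebf2 (0.12 to 0.46), pmvk (0.35 to 0.67), sqlea (0.69 to 1.502) and cyp51 (0.66 to 0.89) kept a positive log2 fold change. The members were chosen on this contrast and its evenness, and the alternatives reuse the same libraries. The kept signs of the median and of these genes were thus partly set by that choice and carry no test. The sign changed in at least 1 alternative for ldlra (-1.34 to 1.63), hmgcra (-0.26 to 0.30), hmgcs1 (-0.02 to 0.34), lss (-0.14 to 0.53) and dhcr7 (-0.18 to 0.78). The replicate term called 7576 to 8577 genes under other scalings, filters and row choices, and 5323 to 10858 with 1 library left out. Counts of 20 to 89 per library limit pmvk, sqlea and lss.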
